A study of Mus musculus with 6 samples.

Results

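The axon guidance ligands and receptors were compared between Lgr5-positive and Lgr5-negative cells of the mouse mammary gland. Members were all genes on the array whose symbol belongs to the semaphorins of classes 3 to 7, the plexins, the neuropilins, the Eph receptors, the ephrins, the Slit proteins, the Robo receptors, the netrins, the Unc5 receptors, Dcc or neogenin (Neo1). The rule used names alone and no measured value, and it found 72 genes with 94 probes among the 20887 gene symbols on the array. Among them 2 match by letters only: Plxna4os1 is an antisense RNA of the Plxna4 locus, and Unc5cl is a relative of the Unc5 receptors rather than a netrin receptor.

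RNA came from sorted mammary cells of virgin C57/B6 mice carrying the lgr5-egfp-ires-creert2 allele, in which EGFP is made from the Lgr5 locus. The Lgr5-positive group was the GFP+ part and the Lgr5-negative group the GFP- part of the Lin-CD24+CD29hi gate, which is called P4 in the study and is known to hold basal cells and mammary stem cells. Each group had 3 arrays, numbered 1 to 3, and all mice carried the same allele, so no wild-type cells were compared. Sample RNA was labelled with Cy5 and hybridised against a Cy3-labelled universal reference from a mix of 11 mouse cell lines. All values below are log2 ratios of Cy5 to Cy3 after normalization, so 0 means the same signal as in the reference, and ratios of different probes cannot be ranked against each other. No label says whether the arrays of a group came from separate animals, so the p-values measure only the spread between these RNA samples.

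Axon guidance molecules were first described in the developing nervous system, where growing axons read attractive and repulsive cues through cell surface receptors. Semaphorins act through plexins, with neuropilins as co-receptors for most secreted class 3 members. Ephrins on one cell bind Eph receptors on the next and signal both ways. Slit proteins bind Robo receptors, and netrins bind Dcc, neogenin and the Unc5 receptors. The same families act outside the nervous system. In the mammary gland netrin-1 and neogenin help to hold the outer cell layer of the end bud in place, and Slit proteins act with Robo1 in basal cells. In blood vessels Robo4, plexin-D1, the neuropilins and ephrin-B2 have known parts in vessel growth and wall integrity.

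Lgr5 itself, the gene that drives the reporter, had log2 ratios of 4.24, 5.36 and 5.01 on the Lgr5-positive arrays, against 2.84, 4.04 and 3.31 on the Lgr5-negative arrays, so its transcript was measured in both groups and lay higher in the GFP+ cells in each pair. The median Cy5 spot signal was 137 to 169 on Lgr5-positive arrays and 200 to 278 on Lgr5-negative arrays, over a background of 64 to 76, and 50.9% to 74.4% of the probes on an array passed the scanner's test against background. Of the basal keratins, Krt5 had log2 ratios of 4.75, 3.76 and 4.54 on Lgr5-positive arrays and 4.57, 3.76 and 3.63 on Lgr5-negative arrays. Its log2 fold change was 0.36. Krt14 and Krt17 were higher in each pair, with log2 fold changes of 0.48 and 0.62. Arrays that bear the same replicate number in both groups deviated together, so each comparison is given without and with the replicate number as a block. With the block Krt17 had an adjusted p of 0.0455 in limma, Krt14 0.0779 and Krt5 0.333. All 6 arrays were on 1 slide and were read in 1 scan.

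Of the 72 members, 59 were tested, 29 of them ligands and 30 receptors. In the limma fit of the group alone, 2 members passed an adjusted p of 0.05, and both were lower in Lgr5-positive cells: Sema7a, a membrane-anchored semaphorin, and Unc5a, a netrin receptor. Unc5a was above background only on Lgr5-negative arrays, so it passed the filter through the group where it was high and its call is no support for the count. The 2 are 3.39% of the tested members, and Sema7a alone is 1.72% of the 58 members measured in both groups, against 0.612% of all 15680 genes tested (0.587% lower and 0.0255% higher). At an unadjusted p of 0.05 the limma fit of the group alone held 12 of the 59 members, against 1285 of the 15680 genes (8.2%). The fit with the block held 20 of the 59 members, against 3347 of the 15680 genes (21.3%). With the replicate block, 11 members passed, 10 lower and 1 higher, which is 18.6% of the tested members against 7.72% of all genes, or 10 of 58 (17.2%) without Unc5a. By direction, the block called 5.61% of all genes lower and 2.1% higher. The 10 lower members were Sema3b, Sema6b, Sema7a, Plxna2, Plxnd1, Nrp2, Efnb2, Robo2, Robo4 and Unc5a, and the 1 higher member was Ephb1. All 11 moved in one direction in all 3 same-numbered pairs, but the blocked fit favours such genes, so this is no further support for the calls. Of the 59 members, 17 were lower and 11 higher in all 3 pairs. Both directions together made 47.5% of the members, against 44.3% of all genes (21.8% lower and 22.5% higher). For 7 of the 11 called members the arrays of the groups did not overlap, and for the other 4 they did. A call also favours genes without overlap, so this count only describes the called members.

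The members did not share a direction. Their median log2 fold change, over the 59 tested, was -0.01, and over all genes it was 0.01, with 27 members above 0 and 32 below. With median centring of each array in place of loess, which moved the median of all genes to -0.29, 10 members lay above 0 and 49 below. The median size of the fold change, without its sign, was 0.28 for the members and 0.16 for all genes. In 11 of the 59 members (10 lower, 1 higher; 18.6%) the arrays of the groups did not overlap, against 12.2% of all genes, 8.14% lower and 4.06% higher, and without Unc5a in 10 of 58 (17.2%). A log2 fold change of -1 or below was found in 8 members (13.6%), or 7 (12.1%) without Unc5a, against 4.0% of all genes. The plot of cumulative shares shows this lower tail.

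**Figure D1:**
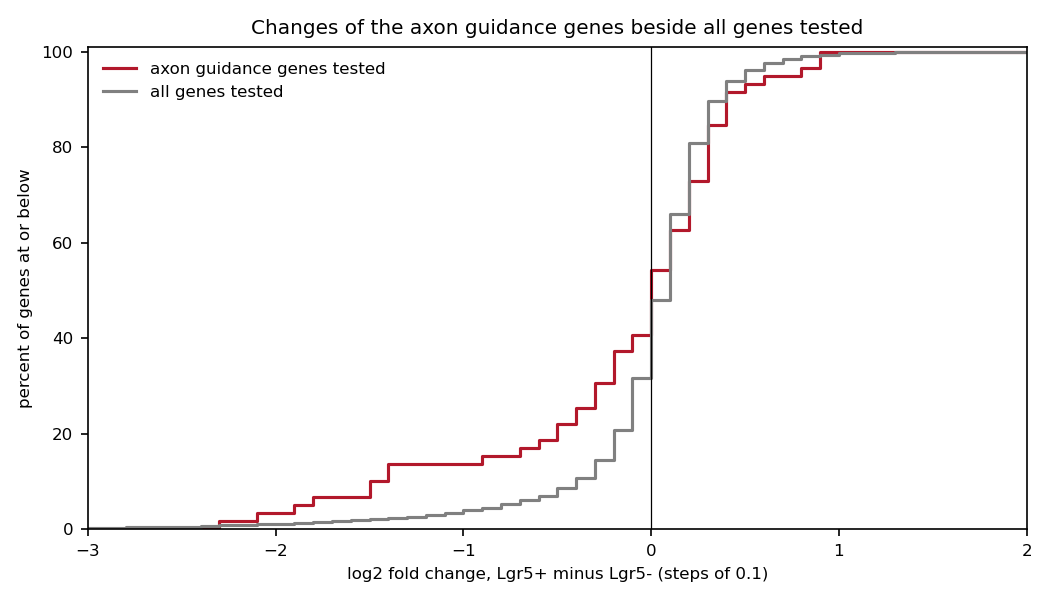
Cumulative percent of genes (vertical axis) at or below a log2 fold change, Lgr5-positive minus Lgr5-negative (horizontal axis, in steps of 0.1), for the 59 axon guidance genes tested (red) and all 15680 genes tested (grey). The red curve lies above the grey one at -1, where it has reached 13.6% of the members, and both medians are close to 0.

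The calls depended on single arrays, among the members and among all genes. Without Lgr5-positive replicate 1, Lgr5-positive replicate 3, Lgr5-negative replicate 2 or Lgr5-negative replicate 3, the group alone called 0 members, without Lgr5-positive replicate 2 it called 2 (Sema7a and Robo4), and without Lgr5-negative replicate 1 it called 7. Of all 15680 genes the group alone called 96 with all arrays. Without the same arrays, in the same order, it called 0, 0, 5, 21, 77 and 371 of them. A fit without 1 array also has fewer arrays to estimate the spread. In these fits the log2 fold change of Sema7a lay between -2.63 and -2.16, and that of Unc5a between -1.59 and -1.42. That of Efnb2, which the group alone did not call, ran from -1.24 to -0.20. With the block, the count of members was 15 without pair 1, 5 without pair 2 and 11 without pair 3. The blocked count over all genes changed too, as given in the closing section. Whether the member counts only followed it was not tested, so their change is no result about the members. The 5 that passed without pair 2 were Sema7a, Unc5a, Plxnd1, Nrp2 and Robo4, and the other 6 then had adjusted p-values between 0.0618 and 0.138 in limma.

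Some lists of cell type markers also differed between the groups, and others did not. Of 15 vascular endothelial markers 14 were tested, with a median log2 fold change of -2.14. The block called 11 of them lower, Tie1 included, and 0 higher (78.6%, against 7.72% of all genes, 5.61% lower). Their mean log2 ratio was 1.31 to 2.36 on Lgr5-positive arrays and 3.06 to 3.87 on Lgr5-negative arrays. Cdh5, the cadherin of endothelial junctions, differed by -2.84, while Kdr, the main VEGF-A receptor, had a log2 fold change of 0.18. The median over the vascular list was -1.72, -1.41 and -2.95 in pairs 1, 2 and 3. Tie1, an endothelial receptor kinase, the lymphatic marker Mmrn1 and the hormone-sensing marker Tnfsf11 were at background on all Lgr5-positive arrays and above it on all 3 Lgr5-negative arrays. They passed the filter through the group where they were high, so their calls are no support for the counts of their lists. Tek was above background on 1 Lgr5-positive and 2 Lgr5-negative arrays, and the other 12 tested vascular markers were above it on all 6 arrays. The tested lymphatic markers (4 of 7) had a median of -1.25, pericyte markers (8 of 9) -0.50, fibroblast markers (8 of 9) -0.44, luminal progenitor markers (5 of 6) -0.37 and hormone-sensing luminal markers (8 of 8) -1.28. In the same order the block called 2, 3, 4, 2 and 6 of them lower. It called Pdpn (lymphatic, 0.61), Fbln1 (fibroblast, 0.99) and Lcn2 (luminal progenitor, 0.62) higher. In both directions these were 75%, 37.5%, 62.5%, 60% and 75% of the lists, against 7.72% of all genes. The lymphatic share counts Mmrn1 and the hormone-sensing share counts Tnfsf11, so these 2 shares are too high to set against that of all genes. Without Mmrn1 the lymphatic calls were Lyve1 lower and Pdpn higher. The 12 basal mammary markers had a median of 0.55, with a mean log2 ratio of 4.16 to 4.33 on Lgr5-positive and 3.29 to 3.58 on Lgr5-negative arrays. They include Lgr5, whose reporter defined the sort, and Tspan8 (log2 fold change 3.46). Without these 2 the median was 0.42 and the mean log2 ratio 3.98 to 4.29 on Lgr5-positive and 3.59 to 3.78 on Lgr5-negative arrays. Leukocyte (7 of 9), Schwann cell and nerve (6 of 8) and luminal (4 of 4, Epcam and 3 keratins) lists had medians of 0.13, -0.05 and 0.05. Lyz2, Csn3 and Reln, from the leukocyte, luminal progenitor and lymphatic lists, were above background on no array. The part of these lists in the axon guidance values was not tested, and in bulk RNA fewer cells of a type and less RNA per cell cannot be told apart.

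**Figure D2:**
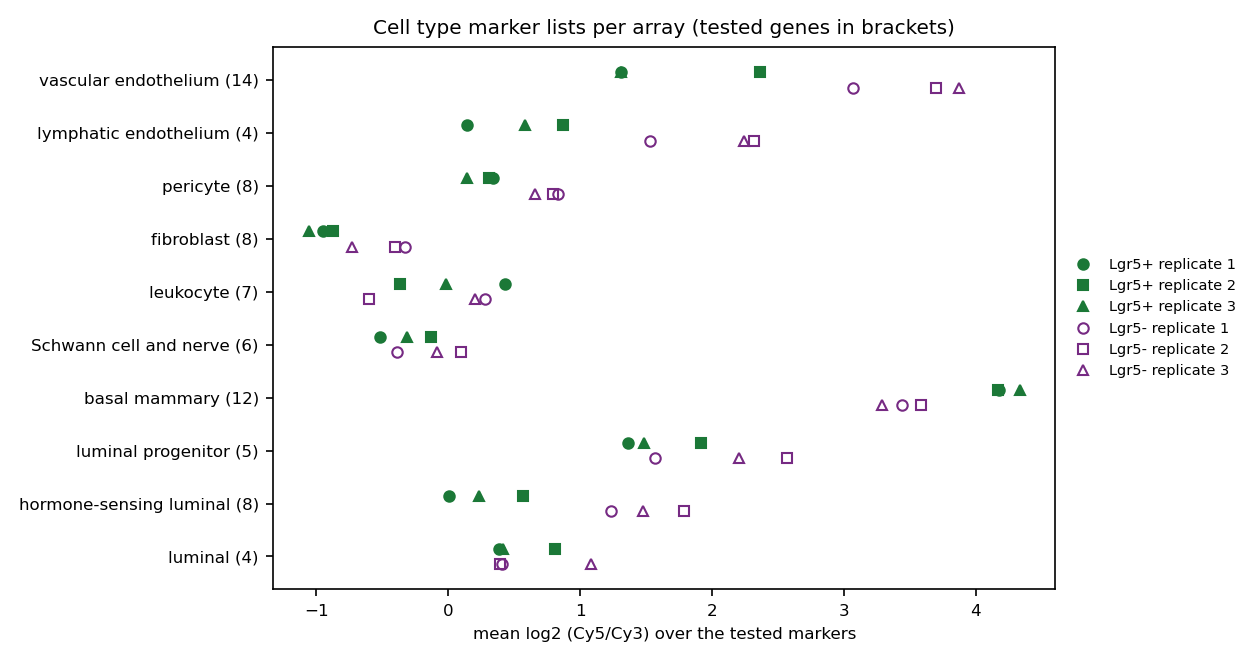
Mean log2 ratio of Cy5 to Cy3 over the tested markers of each cell type list (horizontal axis) on each array, with filled green symbols for Lgr5-positive and open purple symbols for Lgr5-negative arrays, and symbol shape giving the replicate number. The vascular list lies at 1.31 to 2.36 on Lgr5-positive and at 3.06 to 3.87 on Lgr5-negative arrays, and the basal list is the one that lies higher on all Lgr5-positive arrays.

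**Figure D3:**
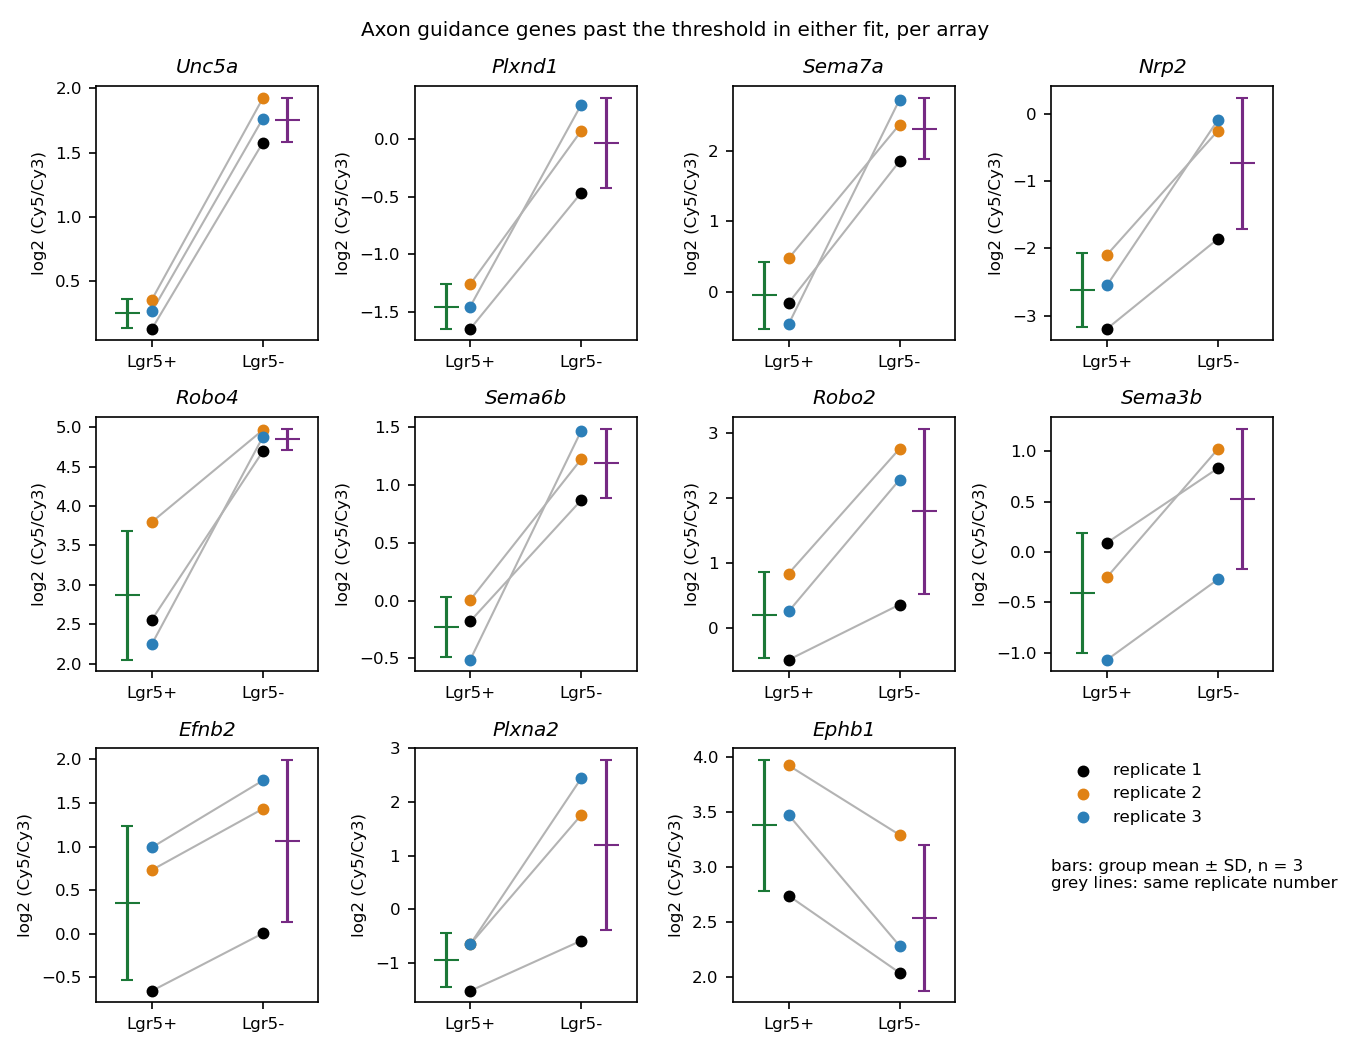
Log2 ratio of Cy5 to Cy3 (vertical axis) on each array for the 11 members past an adjusted p of 0.05 in at least 1 fit, Lgr5-positive arrays on the left of each panel and Lgr5-negative arrays on the right, with colour giving the replicate number, lines joining arrays of the same number and bars giving the mean ± SD (n = 3). All lines of the first 10 panels climb toward the Lgr5-negative side, and those of Ephb1 descend.

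Promoters of 5 of these genes are shown because they stand for the members' range: both genes called in each fit, a plexin and the vascular Robo receptor from the lower set, and the 1 gene that was higher. They are RefSeq sequences of build GRCm38.p6, from 250 bases before to 50 bases after the start of the gene, on the gene's strand. Capitals mark the letters of 3 short motifs read on both strands: the GC box GGGCGG, bound by Sp1-type factors, the ETS core AGGAAG, and the E-box CAGCTG.
Sema7a, chr9:57939862-57940161, plus strand: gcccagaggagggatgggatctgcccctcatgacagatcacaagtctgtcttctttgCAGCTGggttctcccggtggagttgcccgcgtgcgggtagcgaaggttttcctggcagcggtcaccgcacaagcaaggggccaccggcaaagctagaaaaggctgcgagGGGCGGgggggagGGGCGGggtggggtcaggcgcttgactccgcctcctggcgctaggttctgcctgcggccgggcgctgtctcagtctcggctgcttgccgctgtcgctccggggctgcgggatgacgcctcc
Unc5a, chr13:54949161-54949460, plus strand: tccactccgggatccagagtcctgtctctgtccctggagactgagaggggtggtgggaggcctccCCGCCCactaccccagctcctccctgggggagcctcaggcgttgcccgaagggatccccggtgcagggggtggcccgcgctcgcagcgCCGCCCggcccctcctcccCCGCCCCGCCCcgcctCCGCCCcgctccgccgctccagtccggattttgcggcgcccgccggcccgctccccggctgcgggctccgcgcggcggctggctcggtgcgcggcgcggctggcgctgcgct
Plxnd1, chr6:115994956-115995255, minus strand: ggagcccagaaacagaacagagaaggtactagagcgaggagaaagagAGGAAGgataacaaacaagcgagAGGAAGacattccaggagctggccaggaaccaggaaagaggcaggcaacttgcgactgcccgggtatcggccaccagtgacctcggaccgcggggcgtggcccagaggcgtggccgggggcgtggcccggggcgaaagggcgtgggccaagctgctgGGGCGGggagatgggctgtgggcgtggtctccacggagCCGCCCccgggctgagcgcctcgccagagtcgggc
Robo4, chr9:37401722-37402021, plus strand: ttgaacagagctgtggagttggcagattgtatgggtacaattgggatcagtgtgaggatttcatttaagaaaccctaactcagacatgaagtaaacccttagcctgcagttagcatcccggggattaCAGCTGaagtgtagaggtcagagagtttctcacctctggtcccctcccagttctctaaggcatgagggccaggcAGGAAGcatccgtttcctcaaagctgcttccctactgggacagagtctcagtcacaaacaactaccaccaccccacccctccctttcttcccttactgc
Ephb1, chr9:102354644-102354943, minus strand: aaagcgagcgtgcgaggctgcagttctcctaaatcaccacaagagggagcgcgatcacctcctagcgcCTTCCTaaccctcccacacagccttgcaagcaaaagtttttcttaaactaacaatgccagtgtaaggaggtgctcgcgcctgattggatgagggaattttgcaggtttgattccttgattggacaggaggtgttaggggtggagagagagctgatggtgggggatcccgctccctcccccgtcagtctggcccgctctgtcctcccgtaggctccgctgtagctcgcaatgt
The Unc5a window holds 5 GC boxes, of which 2 overlap, and is 78.3% G and C with 37 CpG pairs. The Robo4 window holds no GC box, 1 ETS core and 1 E-box, and is 50.3% G and C with 2 CpG pairs. Sema7a holds 2 GC boxes and 1 E-box, Plxnd1 2 GC boxes and 2 ETS cores, and Ephb1 1 ETS core. Of the 11 called genes, 10 had a promoter entry, and at least 1 promoter held a GC box in 7, an ETS core in 5 and an E-box in 3. Counted by gene in the same way, the 61 members with an entry gave 46, 28 and 12. The shares that follow are per promoter and cannot be set against these counts per gene. Among all 32851 mouse promoters of this length the shares were 35.7%, 35.4% and 16.3%. Among the 77 promoters of the 61 members with an entry they were 71.4%, 37.7% and 15.6%, and the median G and C content was 64.3% in member promoters, against 52.7% in all promoters. A match of letters is no evidence of binding.

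Of 16 semaphorins tested, 13 lay below 0 and 3 above, with a median log2 fold change of -0.27. The group alone called 1 lower (6.25% against 0.612% of all genes), and the block called 3 lower and 0 higher (18.8% against 7.72%). Sema7a, which is held to the membrane by a lipid anchor and signals through beta-1 integrins and plexin-C1, had log2 ratios of -0.16, 0.47 and -0.46 on Lgr5-positive arrays, against 1.86, 2.38 and 2.73 on Lgr5-negative arrays. Every Lgr5-positive array was below every Lgr5-negative one, and the gap between the groups was wider than the spread within either. Group means were -0.05 ± 0.48 in Lgr5-positive and 2.32 ± 0.44 in Lgr5-negative cells (SD, n = 3 each). Sema7a fell by 2.37 on the log2 scale (SE 0.32, 95% interval -3.13 to -1.60) and was 5.16-fold lower, with an adjusted p of 0.0402 in limma, and 0.00366 with the block. Of its receptors, no probe of Plxnc1 was above background on any array, Itgb1 (integrin beta-1) had a log2 fold change of 0.16 and Itga1 (integrin alpha-1) one of -0.50, neither past the threshold in either fit.

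Sema6b, a transmembrane semaphorin and ligand of class A plexins, had log2 ratios of -0.18, 0.01 and -0.51 on Lgr5-positive arrays, against 0.87, 1.22 and 1.47 on Lgr5-negative arrays. The groups did not overlap. Sema6b differed by -1.41 on the log2 scale (SE 0.23), which missed the threshold with the group alone (adjusted p 0.0625 in limma) and passed with the block (0.00824). Without pair 2 the blocked adjusted p was 0.0618. Of the other class 6 members, Sema6a and Sema6c had log2 fold changes of -0.01 and 0.34, and neither they nor Sema6d passed in either fit. A dimmer second probe of Sema6c, also above background on all 6 arrays, gave 0.68, and the mean over both probes gave 0.51, with a blocked adjusted p of 0.0413 in limma.

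Among the secreted class 3 semaphorins, 5 of 7 were tested and 4 of the 5 lay below 0. Sema3b, which acts through neuropilins and is known as a tumour suppressor gene, had log2 ratios of 0.09, -0.25 and -1.07 on Lgr5-positive arrays, against 0.83, 1.02 and -0.27 on Lgr5-negative arrays. The groups overlapped, because the third arrays of both groups were low, but the Lgr5-positive array was the lower of each pair. The log2 fold change of -0.94 had an SE of 0.43 with the group alone (adjusted p 0.703 in limma) and of 0.15 with the block (adjusted p 0.0133). Without pair 2 it was -0.77, with a blocked adjusted p of 0.105. Sema3f, a ligand of neuropilin-2, had 1.30, 1.26 and 1.25 on Lgr5-positive and 1.71, 1.55 and 1.87 on Lgr5-negative arrays, which did not overlap, but its log2 difference of -0.44 passed in neither fit (adjusted p 0.495 and 0.0929 in limma). Sema3c, which signals through neuropilins with plexin-D1, was the 1 class 3 member with a positive sign. Its log2 ratios were 1.11, 1.51 and 2.18 on Lgr5-positive arrays, against 0.38, 1.14 and 0.75 on Lgr5-negative arrays, higher in each pair, and its log2 fold change of 0.84 (95% interval 0.07 to 1.62) had an adjusted p of 0.525 in limma, and 0.056 with the block. A dimmer second probe of Sema3c gave 0.63. Sema3e, which binds plexin-D1 without a neuropilin, had a log2 fold change of -0.40 that passed in neither fit.

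Of the semaphorin receptors, 7 plexins and both neuropilins were tested, and 6 of the 9 lay below 0. Plxnd1 encodes plexin-D1, a receptor of Sema3e and, with neuropilins, of Sema3c, known for its part in vessel patterning. It had log2 ratios of -1.65, -1.26 and -1.45 on Lgr5-positive arrays, against -0.46, 0.07 and 0.30 on Lgr5-negative arrays, with no overlap and a narrow spread among the Lgr5-positive arrays. Plxnd1 had a log2 fold change of -1.43 (SE 0.24), with an adjusted p of 0.0708 in limma for the group alone, and 0.00332 with the block. A dimmer second probe of the same transcript, above background on all 6 arrays, gave -0.30, and the mean over both probes was -0.86.

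Plxna2, a receptor of class 6 semaphorins, had log2 ratios of -1.52, -0.65 and -0.65 on Lgr5-positive arrays, against -0.58, 1.76 and 2.44 on Lgr5-negative arrays. The groups did not overlap, but the first Lgr5-negative array was close to the Lgr5-positive arrays and the other Lgr5-negative arrays were far above them. A log2 fold change of -2.14 (SE 0.75) did not pass with the group alone (adjusted p 0.436 in limma), passed with the block (0.0182), and had a blocked adjusted p of 0.138 without pair 2. Plxna1 and Plxna4, also receptors of the class A type, had log2 fold changes of 0.19 and -0.69, and Plxnb1, Plxnb2 and Plxnb3 had -0.18, 0.08 and 0.13. None of these 5 passed in either fit.

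Nrp2, the co-receptor of Sema3f and of VEGF-C that is known from veins and lymphatic vessels, had log2 ratios of -3.20, -2.10 and -2.55 on Lgr5-positive arrays, against -1.86, -0.26 and -0.10 on Lgr5-negative arrays. The groups did not overlap, and the first array was the lowest in both. The log2 fold change was -1.88, or 3.68-fold lower, with an SE of 0.52 for the group alone (adjusted p 0.256 in limma) and 0.21 with the block (adjusted p 0.00419). A second probe, for another Nrp2 transcript, gave -0.64. Nrp1, the co-receptor of Sema3a and VEGF-A, had -1.26, -1.66 and -1.69 on Lgr5-positive and -1.12, -0.99 and -0.71 on Lgr5-negative arrays. These did not overlap either, but the log2 fold change of -0.60 passed in neither fit (adjusted p 0.411 and 0.099 in limma). Of these ligands of Nrp1, Sema3a had a log2 fold change of -0.33 and Vegfa, the vascular growth factor, one of 0.33, neither past the threshold.

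**Figure D4:**
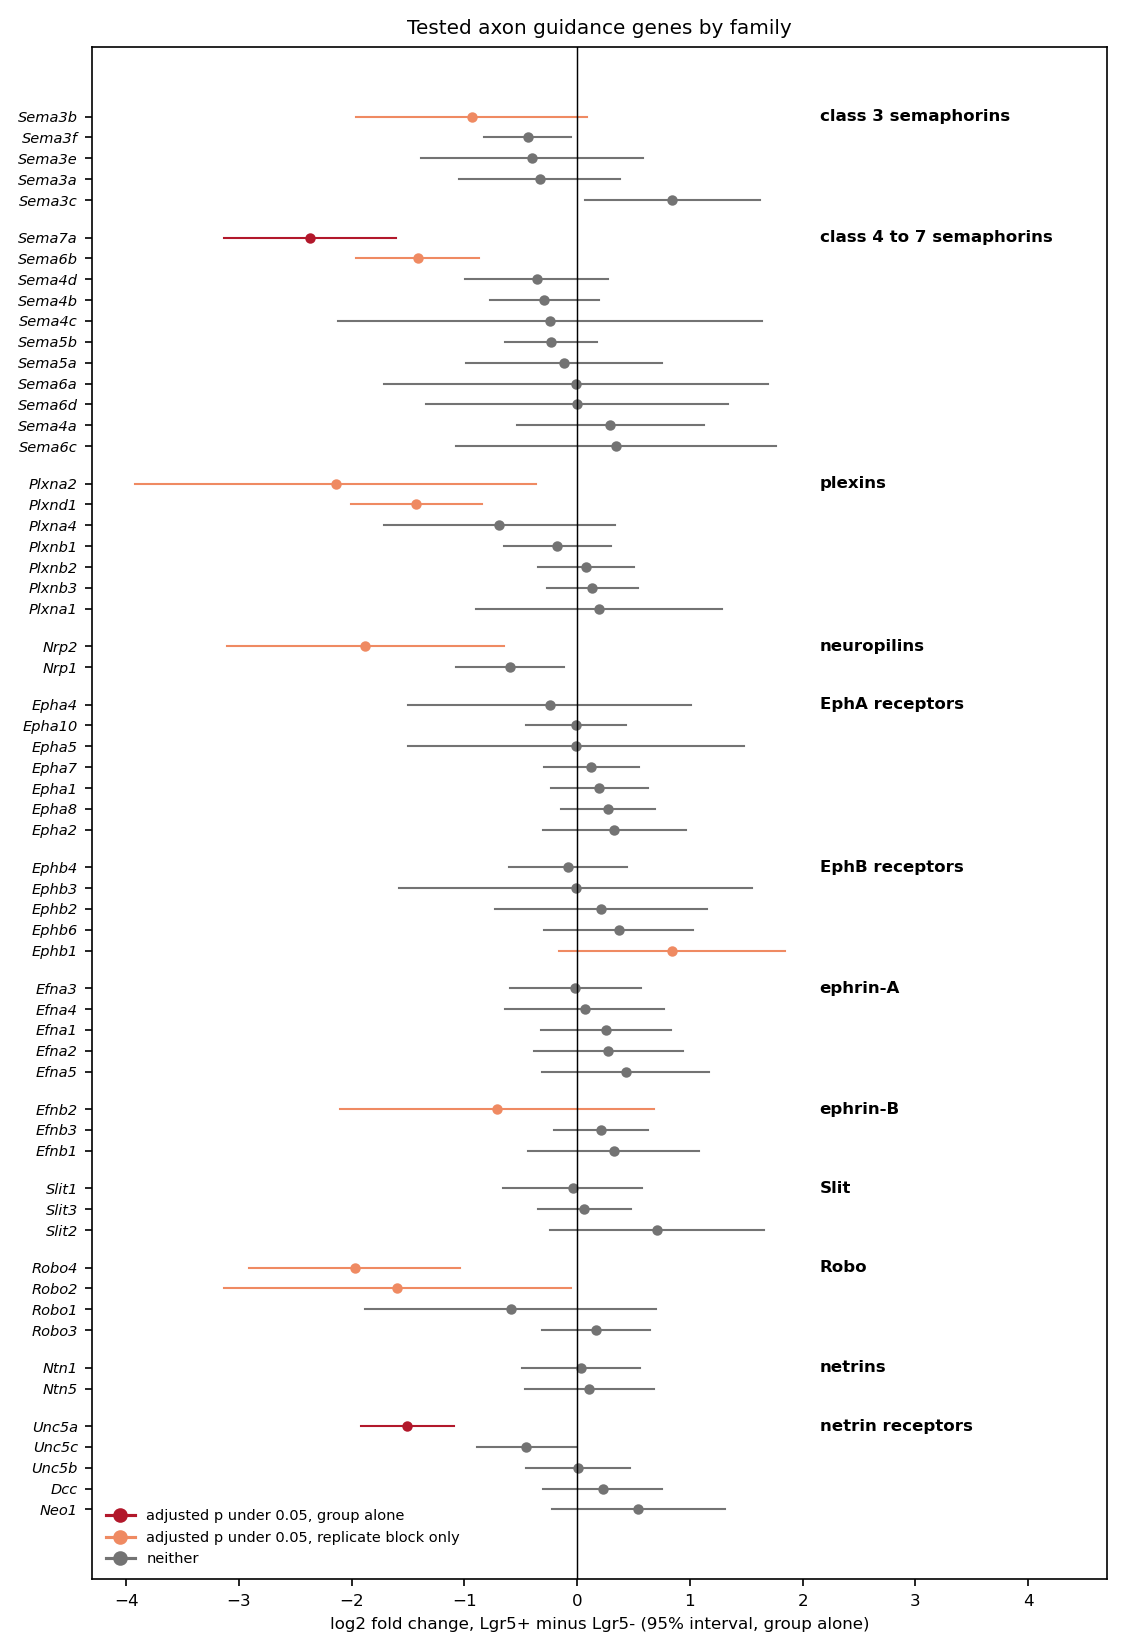
Log2 fold change, Lgr5-positive minus Lgr5-negative (horizontal axis), with its 95% interval from the limma fit of the group alone, for the 59 tested members grouped by family. Red marks Sema7a and Unc5a, which passed with the group alone, orange the 9 that passed with the replicate block only, and grey the rest.

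The called share of Eph receptors and ephrins was near that of all genes. Of 20 tested, 13 lay above 0 and 7 below, with a median log2 fold change of 0.20. The group alone called 0 (0 also at an unadjusted p of 0.05), and the block called 1 lower and 1 higher (10% against 7.72% of all genes), with 3 at an unadjusted p of 0.05. The sign changed with the scaling, which moved all genes. With median centring in place of loess, the median was -0.20 for the Eph receptors and -0.16 for the ephrins, so that 10 of 12 Eph receptors and 6 of 8 ephrins then lay below 0. The median of all genes was then -0.29, and the Eph receptors and ephrins lay above it by 0.09 and 0.13. With loess they lay above it by 0.15 and 0.22. Values given below for single genes with median centring carry the same shift.

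Ephb1, a receptor of B-class ephrins, was the 1 member called higher in Lgr5-positive cells. It had log2 ratios of 2.74, 3.92 and 3.47 on Lgr5-positive arrays, against 2.04, 3.29 and 2.28 on Lgr5-negative arrays. The groups overlapped, because both arrays of number 2 were high, yet the Lgr5-positive array was the higher of each pair. The log2 fold change was 0.84, or 1.79-fold higher. Its adjusted p in limma was 0.781 with the group alone (SE 0.42) and 0.0207 with the block (SE 0.15, 95% interval 0.49 to 1.19). It was 0.097 with the block but without pair 2, and the log2 fold change was 0.60 with the Cy5 channel alone (blocked adjusted p 0.07) and 0.46 with median centring (0.03).

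Efnb2, the transmembrane ephrin that marks arteries and also a ligand of EphB receptors, had log2 ratios of -0.65, 0.73 and 0.99 on Lgr5-positive arrays, against 0.01, 1.43 and 1.76 on Lgr5-negative arrays. The groups overlapped widely, since the first arrays of both were low, but the difference within pairs was nearly constant. The log2 fold change of -0.71 had an SE of 0.59 with the group alone (adjusted p 0.9998 in limma) and 0.11 with the block (adjusted p 0.0154). The second probe of the same transcript, above background on all 6 arrays, gave 0.12. The mean over both probes gave -0.29 with a blocked adjusted p of 0.212, so the call rests on the brighter probe. Ephb4, the venous receptor of ephrin-B2, had a log2 fold change of -0.08 with a 95% interval of -0.61 to 0.44.

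The other members of these families passed in neither fit. Efnb1, a ligand of EphB receptors, had log2 ratios of 3.11, 4.18 and 3.86 on Lgr5-positive arrays and 3.16, 3.77 and 3.24 on Lgr5-negative arrays, with a log2 fold change of 0.32 (95% interval -0.44 to 1.08). Epha2, a receptor known from epithelial cells, and its ligand Efna1 had log2 fold changes of 0.33 and 0.26. Epha8 was the EphA receptor with the lowest p in the fit of the group alone, and Epha2 with the block. Epha8 lay at -1.16, -1.15 and -1.14 on Lgr5-positive and -1.17, -1.58 and -1.51 on Lgr5-negative arrays. These did not overlap, but lay close, with a log2 difference of 0.27 (SE 0.18, limma adjusted p 0.979), and of 0.00 with median centring. Efna5, an A-class ephrin, had 0.06, 0.57 and 0.63 on Lgr5-positive and -0.29, 0.61 and -0.36 on Lgr5-negative arrays, where the second arrays were alike and the others higher in Lgr5-positive cells. Its log2 fold change was 0.43 (SE 0.31, adjusted p 0.9998 in limma), and -0.04 with median centring.

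Slit ligands and Robo receptors differed in pattern by member, and all 7 were tested. Robo4, the Robo receptor of endothelial cells, had log2 ratios of 2.56, 3.80 and 2.25 on Lgr5-positive arrays, against 4.69, 4.96 and 4.87 on Lgr5-negative arrays. The Lgr5-negative arrays lay close together, and the second Lgr5-positive array came nearest to them. Robo4 had a log2 fold change of -1.97, or 3.93-fold lower (SE 0.40), with an adjusted p of 0.113 in limma for the group alone, and 0.00718 with the block. With the scanner's own ratios it was -1.17, with a blocked adjusted p of 0.08. With the Cy5 channel alone it was -2.97, with adjusted p-values in limma of 0.0321 (group alone) and 0.000619 (replicate block). The mean of the vascular endothelial markers, whose median fold change was -2.14, also lay lower on every Lgr5-positive array than on any Lgr5-negative one.

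Robo2, a receptor of Slit proteins, had log2 ratios of -0.49, 0.84 and 0.25 on Lgr5-positive arrays, against 0.36, 2.75 and 2.28 on Lgr5-negative arrays. It was well above background on 1 Lgr5-positive and 2 Lgr5-negative arrays, and the groups overlapped through the first Lgr5-negative array. Its log2 fold change of -1.59 (SE 0.65) did not pass with the group alone (adjusted p 0.572 in limma) and passed with the block (0.0104). It was -3.04 with the scanner's own ratios, with a blocked adjusted p of 0.0535, and the blocked adjusted p was 0.0996 without pair 2. Robo1, the Slit receptor known from mammary basal cells, had 1.58, 2.69 and 2.96 on Lgr5-positive arrays and 1.93, 3.56 and 3.52 on Lgr5-negative arrays. It was lower in each pair, and its log2 fold change of -0.59 had a blocked adjusted p of 0.0539 in limma. Robo3 had a log2 fold change of 0.17.

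Slit2 was the Slit ligand with the lowest p in both fits. Its log2 ratios were -1.25, -0.66 and -0.22 on Lgr5-positive arrays, against -2.13, -0.83 and -1.29 on Lgr5-negative arrays, higher in each pair but overlapping between groups. Slit2 had a log2 fold change of 0.71 (SE 0.40, 95% interval -0.24 to 1.65), with an adjusted p of 0.885 in limma, and 0.076 with the block. It was 0.35 without Lgr5-negative replicate 1, 0.46 without Lgr5-positive replicate 3 and 0.20 with median centring. Slit1 and Slit3 had log2 fold changes of -0.04 and 0.06, with 95% intervals of -0.66 to 0.58 and -0.35 to 0.47. Srgap1, a GTPase-activating protein that acts below Robo receptors, had a log2 fold change of -0.63 and did not pass.

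In the netrin families 2 ligands and 5 receptors were tested. Unc5a, a repulsive netrin receptor that can also trigger cell death when no ligand is bound, had log2 ratios of 0.13, 0.36 and 0.26 on Lgr5-positive arrays, against 1.58, 1.92 and 1.77 on Lgr5-negative arrays. The groups did not overlap. Means were 0.25 ± 0.11 in Lgr5-positive and 1.76 ± 0.17 in Lgr5-negative cells (SD, n = 3 each). The Cy5 signal of its probe stood clear of background on all 3 Lgr5-negative arrays but on no Lgr5-positive array, so the Lgr5-positive level is only a bound and the spread among those arrays is that of dim signal. With both channels scaled between arrays, Unc5a was at least 2.57-fold lower in Lgr5-positive cells. That bound sets the Lgr5-negative mean against, on each Lgr5-positive array, the higher of the probe's own signal and the lowest signal of any probe above background, and here the probe's own signal was the higher. It holds for that scaling only, since the log2 difference was -1.19 with the Cy5 channel alone and -3.63 with the scanner's own ratios. The test in limma gave it an adjusted p of 0.0289 (group alone) or 0.00152 (replicate block), for a probe that passed the filter only through the Lgr5-negative arrays and so had to differ.

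The other netrin receptors passed in neither fit. Unc5c had log2 ratios of 0.18, 0.06 and -0.07 on Lgr5-positive arrays and 0.26, 0.66 and 0.60 on Lgr5-negative arrays, without overlap, and a log2 fold change of -0.45 (adjusted p 0.575 in limma). A dimmer second probe of the same transcript gave -0.10, with groups that overlapped. It was above background on 2 Lgr5-positive arrays and 1 Lgr5-negative array. Unc5b, which also binds Robo4 in vessels, had a log2 fold change of 0.01, with a 95% interval of -0.45 to 0.47. Neo1 had -0.60, -0.04 and 0.20 on Lgr5-positive and -0.93, -0.11 and -1.02 on Lgr5-negative arrays, higher in each Lgr5-positive array of a pair, with a log2 fold change of 0.54 (95% interval -0.22 to 1.31). Dcc had a log2 fold change of 0.23 on 1 probe above background on all 6 arrays, while its other 2 probes were above it on none. Ntn1, the netrin known from the end bud, had 0.62, 0.32 and 0.88 on Lgr5-positive arrays and 0.30, 0.76 and 0.66 on Lgr5-negative arrays, which overlapped, with a log2 fold change of 0.04 (95% interval -0.49 to 0.56). Ntn5, the netrin with the lower p in both fits, had 0.15, 0.26 and 0.29 on Lgr5-positive and 0.60, -0.20 and -0.01 on Lgr5-negative arrays, and differed by 0.11 on the log2 scale (SE 0.24, limma adjusted p 0.9998).

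The 13 members not tested were dim on most arrays. The probes of 6 of them (Sema4f, Plxnc1, Plxna4os1, Epha3, Ntn4 and Unc5d) were well above background on no array, and those of the other 7 (Sema3d, Sema3g, Sema4g, Plxna3, Epha6, Ntn3 and Unc5cl) on 1 or 2 arrays, below the 3 that the test required. A dim probe sets a limit on what the array could measure and does not show that the gene is silent. Of the 59 tested members, 50 were above background on all 6 arrays.

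Members also varied between replicate numbers. For 17 of the 59 tested members (28.8%) the mean of the same-numbered pair ranged over more than 1 log2 unit among the 3 numbers, against 16.3% of all genes. The range of pair means exceeded the fold change between groups in 44 members (74.6%), against 83.3% of all genes. A range over 3 means tends to be larger than a single difference between group means. This count therefore cannot show which source of variation was larger. Sema6a, a ligand of class A plexins, had 2.74, 0.57 and 2.80 on Lgr5-positive and 2.49, 0.95 and 2.70 on Lgr5-negative arrays, so that the second array was low in both groups and the log2 fold change was -0.01. Sema4c, a plexin-B2 ligand, had 0.78, -1.30 and 1.26 on Lgr5-positive and 0.58, -0.66 and 1.56 on Lgr5-negative arrays, and Ephb3, a receptor of B-class ephrins, had 1.08, -0.79 and 1.11 on Lgr5-positive and 0.48, -0.48 and 1.44 on Lgr5-negative arrays. All 3 were lowest on both arrays of number 2. Among the 17 genes, pair 2 had the lowest mean in 8, pair 1 in 7 and pair 3 in 2. Of the 11 called members, 6 were among the 17, and for 4 of the 11 (Efnb2, Ephb1, Robo2 and Sema3b) the range between numbers was larger than the fold change.

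**Figure D5:**
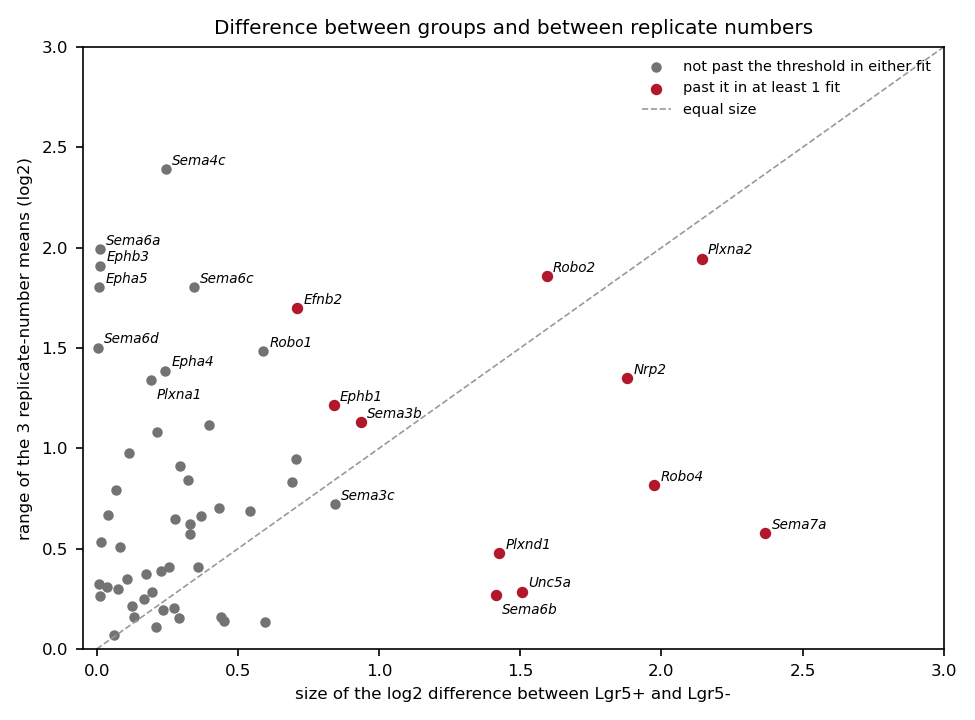
Range of the 3 means of same-numbered pairs (vertical axis, log2 units) against the size of the log2 difference between Lgr5-positive and Lgr5-negative cells (horizontal axis) for the 59 tested members. Points above the dashed line, 44 of the 59, had a range of pair means larger than the difference between groups. The 11 called members (red) lie on both sides of the line.

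Other genes of the axon guidance pathway, a list of 94 co-receptors, further ligands and signal carriers, gave 88 tested genes with a median log2 fold change of 0.06. The group alone called 0 of them (9 at an unadjusted p of 0.05), and the block called 9 lower and 1 higher, which is 11.4% against 7.72% of all genes. Flt1, a VEGF receptor that is also on the vascular marker list, had log2 ratios of -0.75, 0.68 and -0.13 on Lgr5-positive arrays, against 0.91, 2.50 and 2.80 on Lgr5-negative arrays. Rnd1, a small GTPase that binds plexins, had -0.05, 0.83 and -0.15 on Lgr5-positive arrays, against 1.56, 2.49 and 2.68 on Lgr5-negative arrays. Neither pair of groups overlapped, and the log2 fold changes were -2.14 and -2.04 (adjusted p 0.00472 and 0.00521 in limma with the block). Flrt3, an adhesion protein that binds Unc5 receptors, had a log2 fold change of -1.52, Nck1, an adaptor in Robo and Eph signalling, one of -1.15, and Adam10, a protease that cuts ephrins, one of -1.01. The other genes called lower were Cd74, Ablim1, Gipc1 and Cxcl12, with log2 fold changes of -1.04, -0.67, -0.73 and -0.57. Nrcam, an adhesion molecule that forms complexes with Nrp2, was the 1 called higher, at 0.46, 0.42 and 0.67 on Lgr5-positive arrays, against -1.03, -0.72 and -0.26 on Lgr5-negative arrays, with a log2 fold change of 1.19.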

How the data were processed

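Two-colour Agilent arrays were read from the deposited scanner files, which per the file headers come from Agilent Feature Extraction version 11.0.1.1 (11.0 per the submitters' processing notes). The median spot and background intensities in them are the authors' scanner values, not normalized. The files also hold the deposited log10 ratio of processed Cy5 over Cy3, and the deposited table of the whole series holds log2 values that were centred on each probe's median, found by comparison with the scanner's ratios; both were used as alternatives. Mean intensities were not used. With limma 3.58.1 in R 4.3.3, intensities were background-corrected (normexp, offset 50) and loess-normalized within each array. Control and outlier spots had weight 0 and were then left out. Spots were averaged per probe. Probes whose Cy5 signal exceeded background, by the scanner's own flag, on 3 or more of the 6 arrays were kept (34552 of 55681 probes), and the brightest probe stood for a gene, which gave 15680 genes. Probes were named through RefSeq transcripts (20504 of 20847 mRNA accessions matched). Arrays were grouped by the labels. lmFit and eBayes gave two-sided p-values, adjusted by Benjamini-Hochberg over all genes, with a threshold of 0.05.

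The main fit has the group alone. Deviations from the group means correlated at 0.810, 0.819 and 0.675 between same-numbered arrays, all above 0.1, so the numbers were taken to pair the arrays and the blocked fit is given beside the main one. Members, gene lists and tests were chosen with earlier results of these data known. Values are given in full for members called in either fit and, in each family without one, for the member with the lowest p. The alternatives were other background corrections, scalings, filters, probe rules and array weights, the deposited table, and leaving out arrays or pairs. The 6 arrays limit the precision, no spot was saturated, and the dyes were not swapped, so a dye effect common to all arrays cancels between groups. Coordinates are given with promoter sequences alone.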

Additional observations from a re-analysis of the deposited data

How the results depend on the processing

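Sema7a, Plxnd1, Nrp2, Plxna2, Unc5a and Sema6b passed in the blocked fit under every processing alternative that tested them with all arrays. Of 399 values of the 15 named genes under alternatives, 0 reversed a call. Only a called gene can lose its call. With the group alone, Sema7a kept its call in 5 of 9 processing alternatives and 2 of 6 fits without 1 array. Unc5a kept it in 7 of 8 and 1 of 6. The 2 genes lost the call in 14 values, and other named genes gained one in 9. With the block, the 11 called members lost it in 16 values, and 0 were gained. The group alone called 96 genes, but 9 with median centring, 44 where probes had to be well above background on all 6 arrays, 312 with array weights and 1210 with the replicate block. Leaving out 1 array gave 0 to 371. It called 2 members, but 1 with the scanner's ratios (Unc5a), 1 with the deposited value table (Unc5a), 1 with probes above background on all 6 arrays (Sema7a), 0 with median centring, 4 with array weights and 11 with the replicate block; leaving out 1 array gave 0 to 7. With the block, the 1210 genes became 738 with the scanner's ratios, 753 with the deposited value table and 5790 (5662 lower) with median centring, which moves the median of all genes to -0.29, and the 11 members became 7, 7 and 24. Leaving out 1 pair gave 326 to 1397 genes and 5 to 15 members. The members' median of -0.01 was -0.31 with median centring and between -0.11 and 0.092 without single arrays. The cause of these differences was not tested. With the group alone, adjusted p-values in limma over these alternatives ran from 0.0192 to 0.0979 for Sema7a and from 0.00862 to 0.0659 for Unc5a. Slide or scan as a block was not run, since there was 1 of each. Dim signal limits 13 members that were not tested and 9 that were above background on some arrays only.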
